A study of Mus musculus with 6 samples.

Results

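The interferon-induced transmembrane (IFITM) genes Ifitm1, Ifitm2, Ifitm3 and Ifitm6 were described in RNA-seq libraries of mouse peritoneal macrophages. The 4 genes were chosen by name, with their values in these libraries already known, and make up 4 of the 54532 genes in the deposited table. Their levels and differences between groups are therefore given as a description, with no test. Ifitm3 was the most abundant member in every group. It stood 9.75-fold higher in macrophages given LPS and ATP than in untreated ones, or 6.67-fold when scaled by fragments on genes. It was 2.23-fold lower when muscone was also given. Ifitm1 went from close to undetected to a mean of 12.7 FPKM (a fragment count scaled by gene length and by the depth of the library), Ifitm2 was 2.32-fold lower with muscone, and Ifitm6 stayed under 4 FPKM in all libraries.

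IFITM proteins are small membrane proteins that hinder the entry of enveloped viruses by acting at the membrane where virus and cell fuse. Ifitm1 is found mainly at the cell surface, whereas Ifitm2 and Ifitm3 act mainly in late endosomes and lysosomes, where Ifitm3 restricts influenza viruses. In macrophages, LPS acting through the receptor TLR4 leads to production of interferon beta. Interferon beta then signals through its receptor and the kinases Jak1 and Tyk2 to a complex that holds the factor Irf9 and binds interferon-stimulated response elements (ISRE) in DNA. Many genes answer that signal, and IFITM genes are among the classical ones.

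The cells were thioglycolate-elicited peritoneal macrophages (PMs) of wild-type C57BL/6J mice aged 6 to 8 weeks, harvested 5 days after injection of the irritant, and untreated in the Control group. Model cells were primed with LPS at 500 ng/mL for 5.5 h and then received 2 mM ATP for 0.5 h, which activates the NLRP3 inflammasome. MUS cells were stimulated identically but also received 50 μM muscone, a macrocyclic ketone of musk, 5 h after LPS and 0.5 h before ATP. Each of the 3 groups had 2 libraries, one in batch 1 and one in batch 2 according to the labels, and nothing in the sources used here says that they came from separate mice or cultures, so p-values measure only the spread between these libraries. No group received muscone alone or LPS alone, so the parts of LPS and ATP in a difference from Control cannot be told apart.

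All 4 genes lie on mouse chromosome 7 within 63.1 kb. In build GRCm38, Ifitm2 spans chr7:140954837-140955987 on the minus strand, Ifitm1 chr7:140967221-140969825 on the plus strand, Ifitm3 chr7:141009586-141010770 on the minus strand and Ifitm6 chr7:141015699-141017924 on the minus strand. The transcript with the longest coding sequence has 2 exons in Ifitm2 and Ifitm3 and 3 exons in Ifitm1 and Ifitm6. Coding sequences of Ifitm1, Ifitm2 and Ifitm3 shared between 80.8% and 81.9% of aligned bases with each other, and Ifitm6 shared 63.5% to 68.8% with them. Ifitm6 is the most distant of the 4 members by this measure.

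Because IFITM genes answer interferon, DNA around their start sites was searched for the ISRE core GAAANNGAA on both strands, using RefSeq promoters in build GRCm38.p6, which held all 4 genes. The 30-base stretches that hold a match in Ifitm2 and Ifitm3 are shown because these were the members with lower levels in MUS, with ISRE core letters in capitals, 5′ to 3′ on the strand of the gene (chr7:140955980-140956009 and chr7:141010715-141010744).
Ifitm2: agGAAAAGGAAattgctagagaaagggcgg
Ifitm3: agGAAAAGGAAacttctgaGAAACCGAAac
Both stretches open with the same 9-base match. In Ifitm2 it covers bases -46 to -38 from the RefSeq start and lies upstream of the annotated transcript. In Ifitm3 it covers bases 3 to 11 after the RefSeq start and a second match covers bases 20 to 28, inside the first exon. A match to the STAT site letters TTCNNNGAA, at bases 14 to 22 of Ifitm3, overlaps the second of them.

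No ISRE core letters were found in the whole 300 bases around the RefSeq starts used for Ifitm1 and Ifitm6. The 250 bases upstream of Ifitm3 held none either, since both of its matches lie past the start. For Ifitm1 and Ifitm6, the non-exonic bases of these 250 are shown for comparison with the 2 stretches above (chr7:140967826-140968027, plus strand, and chr7:141016909-141017142, minus strand). Both lie inside the annotated gene between exons, since other transcripts of the same gene start further upstream. DNA around those other starts was not searched, so whether it holds ISRE core letters is not known here.
Ifitm1: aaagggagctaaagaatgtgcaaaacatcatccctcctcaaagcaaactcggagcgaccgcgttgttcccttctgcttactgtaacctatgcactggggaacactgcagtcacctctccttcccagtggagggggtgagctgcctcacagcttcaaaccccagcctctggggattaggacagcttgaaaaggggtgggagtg
Ifitm6: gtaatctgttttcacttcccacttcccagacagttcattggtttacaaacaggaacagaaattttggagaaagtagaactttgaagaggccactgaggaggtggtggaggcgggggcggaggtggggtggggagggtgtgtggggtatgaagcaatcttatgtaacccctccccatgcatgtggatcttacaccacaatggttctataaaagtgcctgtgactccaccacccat
Ifitm6 held a TATA box match (TATAAA) at bases -46 to -41 and a STAT site match at bases -10 to -2, the latter past the stretch shown. Ifitm2 held the reverse of the TATA box letters, TTTATA, at bases -175 to -170. Of 32851 RefSeq promoters, 7.13% held the ISRE core, 7.02% the STAT site and 12.4% the TATA box in their 250 upstream bases, and 8.56% held the ISRE core in the whole 300 bases. None of the 4 members held the NF-κB letters GGGANTTTC, which 0.941% of promoters held upstream. A match describes letters only and does not show that a factor binds there.

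The libraries held between 15526321 and 17135442 fragments on genes, recovered from the table as whole multiples of one step. The depth scale behind the deposited FPKM was 1.45 and 1.34 times the fragments on genes in the Control libraries and 0.909 to 0.998 times in the other 4. FPKM in Control are thus lower, relative to those of Model and MUS, than a scale by fragments on genes would make them. With that other scale the median log2 fold change of all genes went from 0.04 to -0.40 in Model vs. Control, so member values are given on both scales where the scale matters. All 7 macrophage markers had a mean of at least 1 FPKM, and their sum ranged from 11836 to 13340 FPKM in Control, 8426 to 12535 in Model and 10257 to 12096 in MUS, most of it Lyz2 (7275 to 12007 FPKM). Among these markers, Csf1r fell (log2 fold change -1.37 ± 0.32, limma adjusted p = 0.0289) and Fcgr1, an interferon-responsive Fc receptor, rose (3.57 ± 0.41, limma adjusted p = 0.00326) in Model vs. Control. As in any bulk sample, fewer cells of a type and less RNA per cell cannot be told apart.

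Ifitm3, the endosomal member best known for blocking influenza entry, had 130.1 and 208.4 FPKM in the Control libraries, 1993 and 1306 FPKM in Model and 630.2 and 852.6 FPKM in MUS. The 3 groups did not overlap, with Control lowest, MUS between and Model highest. Of genes tested, 32.6% had both Model libraries above both Control libraries, and 39.6% had both MUS libraries above both Control libraries. Both MUS libraries were below both Model libraries for 21%. The share of genes with the whole order was not counted, so nothing is read from it. These values rest on 2017 to 19074 fragments per library, so their 95% exact Poisson intervals were narrow, the lowest being 124.5 to 135.9 FPKM in Control replicate 1. Intervals of this kind cover counting error only, since PCR copies without molecular identifiers are not independent molecules. By mean FPKM, Ifitm3 ranked 143 of 54532 genes in Control, 23 in Model and 56 in MUS. Elicited macrophages that received neither LPS nor ATP thus already held abundant Ifitm3 RNA.

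Ifitm2, the other mainly endosomal member, had 69.4 and 40.4 FPKM in Control, 96.7 and 64.7 FPKM in Model and 29.0 and 40.6 FPKM in MUS. MUS and Model did not overlap, whereas Control overlapped both of them. Its rank by mean FPKM was 561 in Control, 656 in Model and 1283 in MUS. Unlike Ifitm3, Ifitm2 had its lowest mean in the cells given LPS, ATP and muscone and not in untreated cells.

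Ifitm1, the mainly cell-surface member, had 0.280 and 0.200 FPKM in Control, from 7 and 5 fragments. Its 95% exact Poisson intervals there were 0.113 to 0.577 and 0.0649 to 0.466 FPKM. It had 15.3 and 10.03 FPKM in Model and 9.43 and 10.8 FPKM in MUS, from 156 to 236 fragments per library. Control stood apart from both stimulated groups, and Model and MUS overlapped. The rank of Ifitm1 by mean FPKM went from 13054 in Control to 2827 in Model and 3249 in MUS.

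Ifitm6, a member of the same cluster with a more diverged sequence, had 3.19 and 1.11 FPKM in Control, 3.52 and 3.42 FPKM in Model and 3.95 and 2.52 FPKM in MUS, from 23 to 66 fragments per library. It was the only member whose 3 group means lay within a factor of 1.62 of each other. The Control libraries differed more from each other than the group means did.

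**Figure D1:**
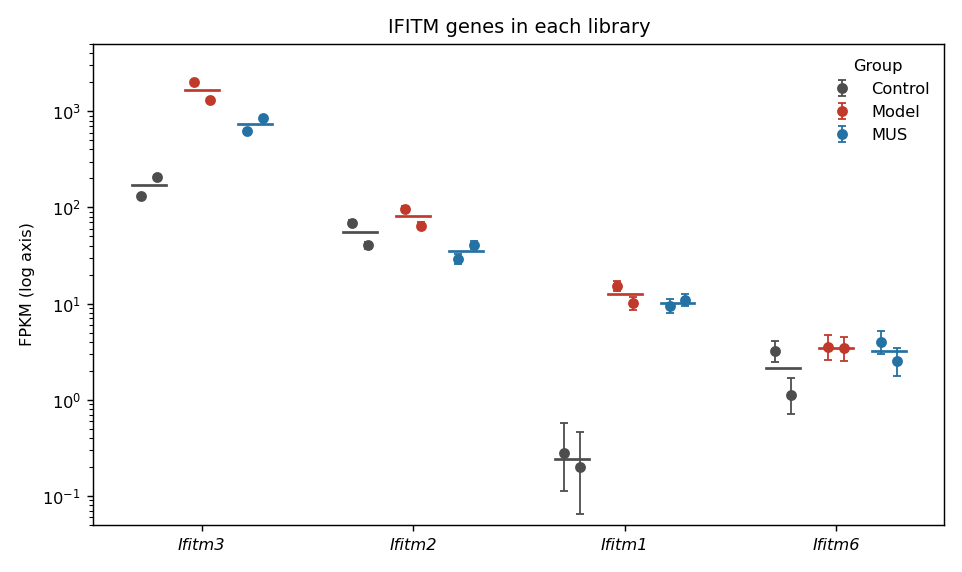
FPKM of each IFITM gene on a log axis, with 1 point per library (replicate 1 left, replicate 2 right), vertical bars for the 95% Poisson counting interval and horizontal lines for the mean of 2 libraries. Ifitm3 has 3 separate groups, Ifitm1 sits at 0.200 to 0.280 FPKM in Control against 9.43 to 15.3 FPKM in the other 4 libraries, and Ifitm6 stays between 1.11 and 3.95 FPKM.

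FPKM are scaled by gene length, so levels of the members can be set beside each other. In Control the order was Ifitm3, Ifitm2, Ifitm6 and Ifitm1, and in Model and MUS it was Ifitm3, Ifitm2, Ifitm1 and Ifitm6. Neighbours in these orders did not overlap in any of the 3 groups, which had 2 libraries each. Ifitm3 made up 64.1% and 83.3% of the summed FPKM of the 4 genes in the Control libraries, and 93.7% to 94.5% in the other 4 libraries. The IFITM RNA of stimulated macrophages was therefore mostly Ifitm3 RNA, with and without muscone.

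Ratios within a library do not depend on its depth scale. The ratio of Ifitm3 to Ifitm2 was 1.87 and 5.16 in Control. It was 20.6 and 20.2 in Model, and 21.7 and 21 in MUS. It differed by less than 2 between the 4 stimulated libraries, although MUS had less of both genes. The ratio of Ifitm3 to Ifitm1, in contrast, was 130.4 and 130.2 in Model, while MUS had 66.8 and 78.9. The ratio of Ifitm3 to Ifitm1 RNA was thus lower in both MUS libraries. That of Ifitm3 to Ifitm2 did not overlap between these 2 groups either, but it was nearly the same in both. Of single genes tested, 21.2% had both MUS libraries above both Model libraries and 21% had both below. These ratios restate the member values and were not tested.

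**Figure D2:**
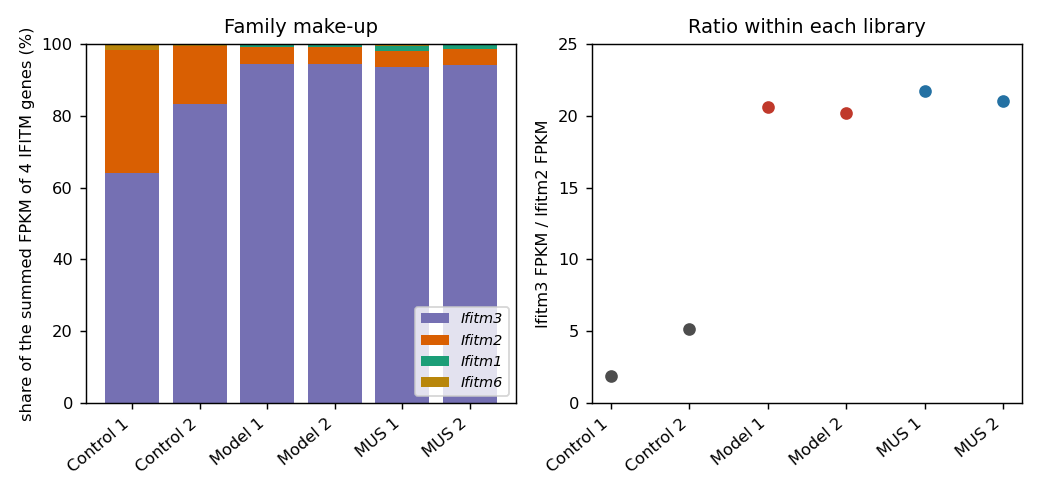
Share of each IFITM gene in the summed FPKM of the 4 genes (left, in %, stacked bars, 1 per library) and ratio of Ifitm3 to Ifitm2 FPKM in each library (right, points). Ifitm3 takes 93.7% to 94.5% in the 4 Model and MUS libraries, where the ratio lies between 20.2 and 21.7, against 1.87 and 5.16 in Control.

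Near-identical copies could split reads between these genes, so the 50-base stretches of each gene's transcripts were searched in transcripts of all other genes. Ifitm6 shared 0% of them, Ifitm1 5.02% and Ifitm3 10.02%. Ifitm2 shared 48.5%, mostly with Gm45717 (36.1%), an annotated gene that overlaps Ifitm2 on the same strand and is listed at 0 in every library. Ifitm2 and Ifitm3 shared 20 stretches, or 3.30% of those of Ifitm2. The level of Ifitm2 is less certain than that of the other members for this reason.

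LPS and ATP were compared with no treatment in Model vs. Control. Ifitm1 and Ifitm3 were the members with large differences, and Ifitm2 and Ifitm6 differed little. On the log2(FPKM + 1) scale the difference was 3.44 ± 0.25 (standard error, 2 libraries per group) for Ifitm1 and 3.28 ± 0.43 for Ifitm3. As ratios of mean FPKM these were 52.8-fold and 9.75-fold, and the pseudocount of 1 makes the log2 value of Ifitm1 smaller than its FPKM ratio. Ifitm2 differed by 0.57 ± 0.39 and Ifitm6 by 0.59 ± 0.35. Both Model libraries were above both Control libraries for Ifitm1, Ifitm3 and Ifitm6, as for 32.6% of the 9794 genes tested, while 28.5% had both below. Since the members were chosen with these values known, nothing is read from that count.

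Batch 1 and batch 2 differed in size. Ifitm3 was 15.3-fold higher in Model than in Control in batch 1 and 6.27-fold in batch 2, and Ifitm1 was 54.6-fold and 50.2-fold higher. For Ifitm2 the ratio was 1.39 in batch 1 and 1.604 in batch 2, and for Ifitm6 1.10 and 3.08. On the scale of fragments on genes, Ifitm2 was at 0.871 of Control in batch 1 and 1.20 in batch 2, and Ifitm6 at 0.691 and 2.30. Ifitm1 and Ifitm3 were thus higher in Model in both batches on both scales, and Ifitm2 and Ifitm6 only with the deposited FPKM. Where Model and Control did not overlap, as for Ifitm1 and Ifitm3 on both scales and Ifitm6 in FPKM, this direction was fixed. It adds no support there.

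On the scale of fragments on genes, Ifitm3 was 6.67-fold and Ifitm1 35.5-fold higher in Model than in Control, whereas Ifitm2 was at 0.985 and Ifitm6 at 1.08 of its Control mean, with overlapping groups. Relative to the median of all genes, the log2 difference of Ifitm2 was 0.53 with the deposited FPKM, 0.43 with fragments on genes and -0.10 after quantile normalization, which turned its sign. Relative to the same median, Ifitm3 differed by 3.24, 3.14 and 2.44 and Ifitm1 by 3.39, 3.66 and 3.26. The large differences of Ifitm1 and Ifitm3 were present on each of these scales, and the direction of Ifitm2 was not fixed by them.

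MUS vs. Model asks what muscone, added before ATP, changed in stimulated cells. Ifitm3 and Ifitm2 were lower by almost the same factor. The log2 difference was -1.14 ± 0.43 for Ifitm3 and -1.18 ± 0.39 for Ifitm2, which correspond to 0.449 and 0.431 of the Model mean. Ifitm1 differed by -0.27 ± 0.25 and Ifitm6 by -0.10 ± 0.35, less than or about as much as the standard error. For Ifitm3 and Ifitm2, both MUS libraries were below both Model libraries, as for 21% of genes tested, and 21.2% of genes had both above.

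In batch 1, Ifitm3 in MUS was at 0.316 and Ifitm2 at 0.300 of its Model value. In batch 2 they were at 0.653 and 0.627. Ifitm1 was at 0.617 in batch 1 and at 1.08 in batch 2, and Ifitm6 at 1.12 and 0.735. Ifitm3 and Ifitm2 were thus lower in MUS in both batches and to a like extent within each, and Ifitm1 and Ifitm6 had no common direction. For Ifitm3 and Ifitm2 the direction in each batch follows from MUS and Model not overlapping, so it adds no support. Their like extent restates the ratio of Ifitm3 to Ifitm2 within libraries. Without Model replicate 1 the log2 difference was -0.83 for Ifitm3, -0.90 for Ifitm2 and 0.01 for Ifitm1. The scale by fragments on genes gave 0.458 for Ifitm3 and 0.440 for Ifitm2.

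Model replicate 1 stood apart in the number of genes detected. It had 24906 genes with fragments, against 17406 to 19200 in the other 5 libraries, from 15529580 fragments on genes. Gm11951 and Gm45308, which share stretches with Ifitm2, were above 0 only there (0.329 and 0.854 FPKM). Beyond leaving out that library, the bearing of this on the member values was not tested. Gene length was another property that varied with the libraries. The log2 level of genes fell by 0.0598 per doubling of gene length in Model replicate 1, relative to the mean over libraries, against slopes of -0.0109 to 0.0420 in the other 5. The members are short, with 655 to 1094 bases against a median of 3910 for genes tested. After removal of these slopes, a correction chosen after seeing the data, the log2 difference in MUS vs. Model was -1.08 for Ifitm3 and -1.12 for Ifitm2.

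In MUS vs. Control, Ifitm3 remained 4.38-fold and Ifitm1 42.2-fold above untreated cells in FPKM. On the scale of fragments on genes they were 3.06-fold and 28.9-fold above. The log2 difference was 2.15 ± 0.43 for Ifitm3, 3.16 ± 0.25 for Ifitm1, -0.61 ± 0.39 for Ifitm2 and 0.49 ± 0.35 for Ifitm6. Both MUS libraries exceeded both Control libraries for Ifitm1 and Ifitm3, as for 39.6% of genes tested, and 33.8% of genes had both below. Ifitm2 overlapped on the FPKM scale, with 0.417 of its Control value in batch 1 and 1.01 in batch 2. On the scale of fragments on genes its groups did not overlap and its MUS mean was 0.433 of Control. The 3 comparisons share libraries and are not independent of each other.

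Interferon signalling was followed in 18 genes, all 18 tested and chosen with earlier results of these data known. They cover interferon beta, the receptors of interferon beta and interferon gamma, and their signalling, including the inhibitors Usp18, Socs1 and Socs3. Whether these signals drove IFITM transcription was not tested. In Model vs. Control, 10 rose and 1 fell (limma, adjusted p of at most 0.05 and absolute log2 fold change over 1), against 9.5% of all genes that rose and 5.56% that fell. Those that rose include the inhibitors Usp18, Socs1 and Socs3, so the count does not measure the strength of the signal. The median log2 fold change of the list was 2.14, beside 0.04 for all genes tested. On the scale of fragments on genes the balance of calls over the whole table turned, from 930 higher and 545 lower to 646 higher and 1554 lower, and voom gave 684 and 2050, while 10 of the 18 genes rose and 1 fell under both. Usp18, which removes Isg15 from proteins and restrains the interferon receptor, rose from 1.76 and 7.74 FPKM to 350.9 and 241.3 FPKM (log2 fold change 5.89 ± 0.54, limma adjusted p = 0.00181). Socs3, a feedback inhibitor of cytokine receptors, rose by 5.58 ± 0.58 (limma adjusted p = 0.00255), and Irf7, a factor that amplifies interferon production, by 4.68 ± 0.41 (limma adjusted p = 0.00157). Jak2, a receptor-associated kinase, rose by 3.21 ± 0.59 (limma adjusted p = 0.0142). The gene that fell was Ifngr1, a chain of the interferon gamma receptor, named after its value was seen (-1.15 ± 0.25, limma adjusted p = 0.0245).

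The ligand itself was scarce at harvest. Ifnb1, also named after its values were seen, was listed at 0 in both Control libraries and had 3.02 and 0.688 FPKM in Model and 1.32 and 0.985 FPKM in MUS. It did not pass the test in Model vs. Control (limma adjusted p = 0.0595). The MUS range lay within the Model range. In MUS vs. Control, 11 of the 18 genes rose and 1 fell, against 11.3% and 8.91% of all genes. Whole-table calls there went from 1107 higher and 873 lower to 738 and 1953 on the scale of fragments on genes, where 8 of the 18 rose and 1 fell.

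With limma on all 6 libraries, 0 of the 9794 genes were called in MUS vs. Model, 0% in either direction, where 825 had an unadjusted p under 0.05 (2.61% of genes tested higher and 5.81% lower). Voom on recovered fragments called 0 genes as well, with 689 at an unadjusted p under 0.05, whereas limma called 7 with only the 2 groups compared and 31 without Model replicate 2. Of the 18 signalling genes, 2 had an unadjusted p under 0.05, both lower in MUS. These were the feedback inhibitors Socs1, with 11.99 and 9.90 FPKM in Model and 2.46 and 3.13 FPKM in MUS (log2 fold change -1.65 ± 0.25, limma adjusted p = 0.257), and Socs3, with 379.8 and 374.3 FPKM in Model and 102.4 and 169.4 FPKM in MUS (-1.51 ± 0.58, limma adjusted p = 0.537). The median of the list was -0.04, beside 0.01 for all genes.

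Other antiviral interferon-stimulated genes were taken as a list of 39, all tested, to set beside the IFITM genes. The list was chosen with earlier results of these data known, so its counts are a description and no independent support. In Model vs. Control 39 of 39 rose, against 9.5% of all genes, with a median log2 fold change of 4.16 and a range of 1.79 to 7.17. Ifi44, Ifit1bl1, Ch25h and Isg20 had Control means of 0.431, 0.538, 0.842 and 0.975 FPKM. They reached the mean of 1 FPKM needed for testing only through the stimulated groups. Without that filter, 12 of the 39 rose, against 228 of 30192 genes. Cmpk2, a mitochondrial nucleotide kinase, rose by 7.17 ± 0.86 (limma adjusted p = 0.00388) and Rsad2, which encodes the antiviral enzyme viperin, by 7.01 ± 0.91 (limma adjusted p = 0.00488). Isg15, a ubiquitin-like modifier, rose by 6.80 ± 0.91 (limma adjusted p = 0.00525) and Ifit1, which binds foreign RNA ends, by 6.67 ± 1.13 (limma adjusted p = 0.0109). The values of Ifitm1 and Ifitm3 lay within the range of this list and below its median, and those of Ifitm2 and Ifitm6 lay below its lowest value. In MUS vs. Control 38 of 39 rose, against 11.3% of all genes, and Rtp4, named after its value was seen, did not pass (limma adjusted p = 0.0522).

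In MUS vs. Model, 0 of the 39 antiviral genes were called and 0 had an unadjusted p under 0.05. Limma called 0% of all genes here in either direction. The fit pools spread over all 6 libraries, so the difference between the Control libraries in these genes, given below, enters the p-values too. Their log2 fold changes were above 0 for 27 and below 0 for 12, with a median of 0.17 and a range of -0.96 to 0.97. For 16 of the 39, both MUS libraries were above both Model libraries, and for 4 both were below. Among all genes tested, 21.2% had both above and 21% had both below. These counts were not tested. Parp14, an ADP-ribosyltransferase, had 90.4 and 212.9 FPKM in Model and 287.5 and 257.9 FPKM in MUS (0.97 ± 0.81, limma adjusted p = 0.811). Ch25h, which makes the antiviral oxysterol 25-hydroxycholesterol, had 139.6 and 77.9 FPKM in Model and 61.6 and 45.9 FPKM in MUS (-0.96 ± 0.44, limma adjusted p = 0.629). Isg15 had 1083 and 592.1 FPKM in Model and 1000.3 and 1169 FPKM in MUS. The values of Ifitm3 and Ifitm2, -1.14 and -1.18, lay below the lowest of the 39. This was not tested, since the members were chosen for their values.

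**Figure D3:**
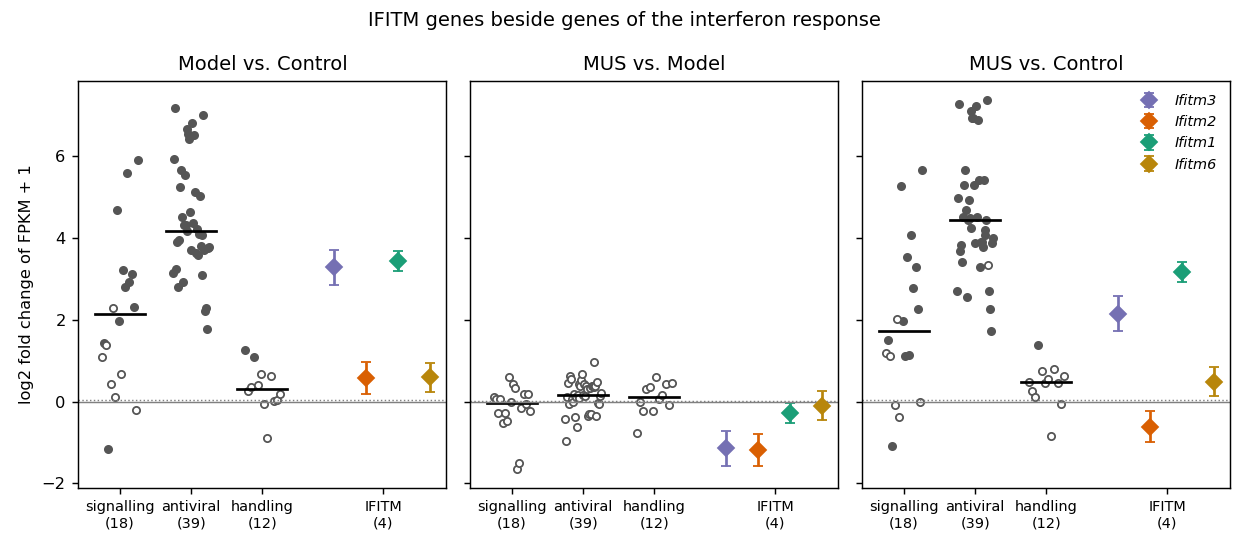
Log2 fold change of FPKM + 1 in each comparison, for interferon signalling genes, other antiviral interferon-stimulated genes and genes whose proteins handle IFITM proteins (circles, filled where called by limma, with a black line at the list median) and for the 4 IFITM genes (diamonds with standard errors), the dotted line being the median of all genes tested. In MUS vs. Model the antiviral genes lie between -0.96 and 0.97, with Ifitm3 at -1.14 and Ifitm2 at -1.18.

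Untreated libraries differed in their interferon-stimulated RNA. Of the 39 antiviral genes, 37 were higher in Control replicate 2 than in Control replicate 1, with a median log2 difference of 1.72, beside 0.04 for all genes tested. Isg15, for instance, had 1.45 FPKM in replicate 1 and 20.1 in replicate 2. Ifitm3 was also higher in Control replicate 2, by 0.68, whereas Ifitm2 was lower by -0.77, Ifitm6 by -0.99 and Ifitm1 by -0.09. Within Model and within MUS, the median difference of the antiviral list between replicates was -0.01 and -0.16. Without Control replicate 1, the log2 difference in Model vs. Control was 2.95 for Ifitm3 and 1.08 for Ifitm6, and without Control replicate 2 it was 3.62 and 0.09. The Ifitm6 value thus depends on which Control library is used.

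Proteins that modify, bind or turn over IFITM proteins were followed in 12 genes, all tested. In Model vs. Control 2 rose and 0 fell, against 9.5% and 5.56% of all genes, with a median of 0.31 beside 0.04 for all genes. On the scale of fragments on genes 0 rose and 1, Setd7, fell, so these calls depend on the scale. Abhd16a, an enzyme that removes palmitate from IFITM proteins, rose by 1.26 ± 0.30 (limma adjusted p = 0.0327), and Fyn, a kinase that phosphorylates Ifitm3, by 1.08 ± 0.25 (limma adjusted p = 0.0284). Setd7, a methyltransferase that acts on Ifitm3, had a log2 fold change of -0.90 ± 0.26 (limma adjusted p = 0.0539), and Lypla1, another depalmitoylating enzyme, 0.67 ± 0.29 (limma adjusted p = 0.151).

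In MUS vs. Model 0 of the 12 were called and the median was 0.11. Abhd16a had 21.3 and 16.0 FPKM in Model and 9.64 and 11.3 FPKM in MUS (-0.77 ± 0.30, limma adjusted p = 0.552). Nedd4, a ubiquitin ligase of Ifitm3, had 1.33 and 2.62 FPKM in Model and 3.55 and 3.25 FPKM in MUS (0.60 ± 0.26, limma adjusted p = 0.617). In MUS vs. Control 1 of the 12 rose and 0 fell, against 11.3% and 8.91% of all genes.

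Other genes with the same membrane domain (CD225) were at low levels. Of 10 such genes in the table, 0 had a mean of 1 FPKM or more, so none was tested. Ifitm7, encoded on another chromosome, was listed at 0 and had 0.221 FPKM in the Control libraries, 1.19 and 1.41 FPKM in Model and 0.585 and 0.648 FPKM in MUS. Its 3 groups stood in the same order as those of Ifitm3, from no more than 52 fragments per library. How many genes had that order was not counted. Ifitm5, a bone gene at the edge of the cluster, had at most 8 fragments in any library, and Ifitm10 stayed between 0.0553 and 0.256 FPKM. The mean of Ifitm10 was highest in Control, with 0.164 FPKM against 0.0983 in Model and 0.0791 in MUS.

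Genes next to the cluster were not among those called. Of 24 annotated genes in the cluster and 100 kb on either side, 9 had a mean of at least 1 FPKM, 4 of them IFITM genes. The other 5 were Bet1l, Ric8a, Psmd13, Gm15542 and Pgghg, and 0 of them were called by limma in any comparison. Over all genes, 9.5% rose and 5.56% fell in Model vs. Control, and 11.3% and 8.91% in MUS vs. Control. In MUS vs. Model 0% were called in either direction. With only 5 genes, nothing is read from a count of 0. In Model vs. Control their log2 fold changes ran from -0.51 ± 0.22 (Pgghg, limma adjusted p = 0.163) to 0.48 ± 0.27 (Gm15542, limma adjusted p = 0.249). In MUS vs. Model they ran from -0.65 ± 0.23 (Bet1l, limma adjusted p = 0.496) to 0.36 ± 0.27 (Gm15542, limma adjusted p = 0.765). In MUS vs. Control they ran from -0.79 ± 0.22 (Pgghg, limma adjusted p = 0.043, with a log2 change under the limit of 1) to 0.84 ± 0.27 (Gm15542, limma adjusted p = 0.0593). Gm15542 is a processed pseudogene inside Psmd13, a proteasome subunit gene, and reads of the pair may not be told apart.

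**Figure D4:**
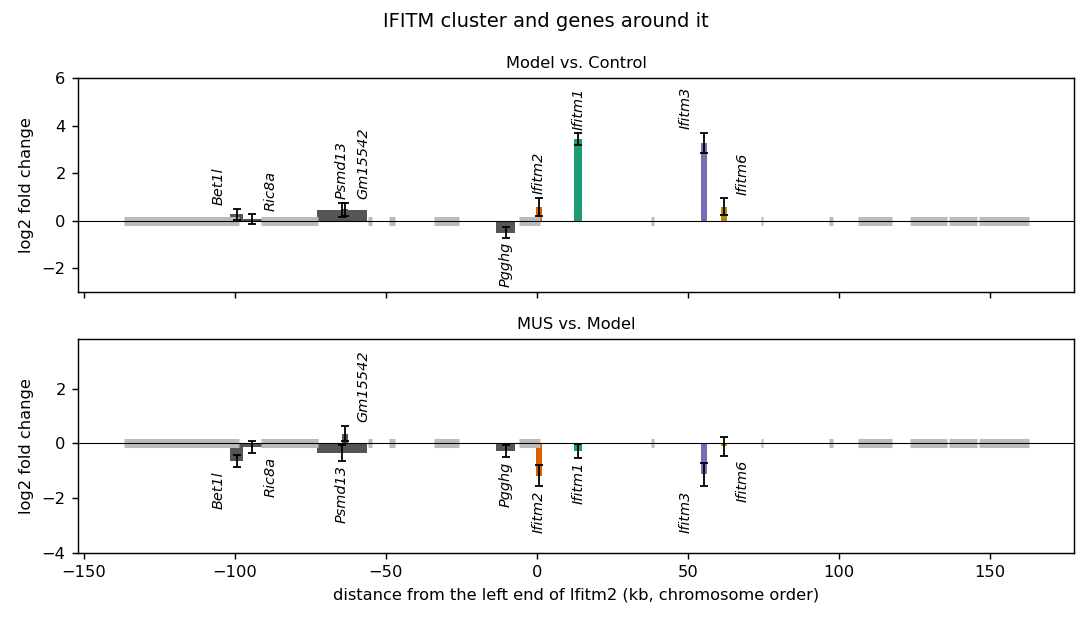
Log2 fold change of FPKM + 1, with standard errors, for genes with a mean of at least 1 FPKM in the IFITM cluster (colours) and around it (dark grey), against the distance in kb from the left end of Ifitm2, with other annotated genes as light bars at 0. Ifitm1 and Ifitm3 reach 3.44 and 3.28 in Model vs. Control, where the 5 neighbours lie between -0.51 and 0.48.

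Likeness of profiles was measured as Pearson's r of log2(FPKM + 1) over the 6 libraries, given as a description. The libraries share 3 treatments, so many genes follow each other. Between members, r was 0.95 for Ifitm1 and Ifitm3, 0.27 for Ifitm2 and Ifitm3 and 0.09 for Ifitm1 and Ifitm2. Closest to Ifitm3 were Il27, a cytokine subunit gene (r = 0.99), Spg7, a mitochondrial protease gene, and Clec2d, a lectin gene. Il27 had 0.386 and 2.40 FPKM in Control, 227.5 and 123.1 FPKM in Model and 45.9 and 61.7 FPKM in MUS. With 225 of 9790 other genes above r = 0.95, this likeness is not particular to the genes named.

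Timp1, an inhibitor of metalloproteinases, Slc16a1, a lactate transporter, and Tle4, a corepressor, were closest to Ifitm1, which had 498 genes above r = 0.95. For Ifitm2 the closest were Fam151b (r = 0.99), Hs1bp3 and Actr6, with 15 genes above that value. Ifitm6 was closest to Gm13123 (r = 0.97), Rpl38-ps2 and Snord65, with 3 genes above it. None of the 12 genes named for likeness belonged to the lists of interferon signalling or antiviral genes. Those lists hold only 18 and 39 genes, and 9790 genes were compared, so nothing is read from this. How many list genes were above r = 0.95 was not counted.

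Markers of other cells of the peritoneal cavity were summed per list. The sum of 5 neutrophil markers was 13.5 to 30.9 FPKM in Control, 57.7 to 111.6 in Model and 50.8 to 64.6 in MUS, lowest in Control and overlapping between Model and MUS. S100a8 alone had a mean of at least 1 FPKM among them, with 110.0 and 56.5 FPKM in Model, and rose in Model vs. Control (1.90 ± 0.48, limma adjusted p = 0.0365), while S100a9, Ly6g and Retnlg were listed at 0 in every library. Sums for 3 Ly6C monocyte markers were 2.85 to 3.54 FPKM in Control, 2.15 to 3.06 in Model and 2.27 to 3.20 in MUS. Sums for 5 T and NK cell, 4 B cell and 3 mast cell markers were at most 1.59 FPKM in any library. Eosinophil markers summed to 1.23 to 4.06 FPKM, with Prg2 and Epx at 0 throughout, and 5 mesothelial cell and fibroblast markers to 6.61 to 16.1 FPKM. The part of these cells in the IFITM values was not tested.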

How the data were processed

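FPKM of each library stood side by side in a single file that the authors deposited. The methods name RSEM and DESeq2 1.20.0, whereas the submitters' processing notes list HISAT2, featureCounts 1.5.0-p3 and build GRCm39, and 98.3% of gene positions equal those of GENCODE M21 on GRCm38, the build used here. Other columns of the table were used for annotation only, and 0 columns lacked a sample. Fragments were recovered from FPKM times gene length, with 100% of values whole within 0.1 of a step.

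Genes with a mean of at least 1 FPKM (9794) were fitted with limma 3.58.1 in R 4.3.3, with trend, on log2(FPKM + 1) in all 6 libraries (3 residual and 4.04 prior degrees of freedom), two-sided, with Benjamini-Hochberg adjustment over all genes tested. Called genes, described as risen or fallen, differed by more than 1 on the log2 scale with an adjusted p no higher than 0.05. The fit was also run on simulated data with independent normal noise. That noise lacked the uneven replicates seen in these libraries, so the run is no support for the calls here. The members and gene lists were chosen with earlier results of these data known, which holds for the alternatives as well. Named genes were, per list, up to 4 with the largest change in Model vs. Control and up to 2 in MUS vs. Model, every expressed neighbour within 100 kb, and the 3 most like each member. Files were read with Python 3.11.15 and pandas 2.3.3, and sequences came from RefSeq (GRCm38.p6) and GENCODE M21 transcripts. Protein sequences were not used here, and coding sequences were aligned in place of the planned protein comparison. Alternatives covered pseudocount, filter, scaling, samples and a replicate block.

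A batch field in the labels gives 1 or 2 to each library, the same as its replicate number. Differences between replicates correlated across genes at 0.12 for Control with Model, 0.14 for Model with MUS and -0.09 for Control with MUS.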

Additional observations from a re-analysis of the deposited data

How the results depend on the processing

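The replicate block left the log2 difference of every member as it was, for example -1.14 for Ifitm3 in MUS vs. Model, and changed calls over all genes from 1475 to 1582 in Model vs. Control, 1980 to 2125 in MUS vs. Control and 0 to 4 in MUS vs. Model. In MUS vs. Model many of the 15 alternatives could not move a member far. The filter, the replicate block, the fit of only the 2 groups and leaving out a Control library cannot change this difference. Leaving out a Model or MUS library cannot move it by more than the replicate SD, which comes from the same libraries. The 4 members moved by less than that SD in each of the 15, so this count is no measure of robustness. Ifitm1 and Ifitm6 turned sign in 1 each, and 0 antiviral genes were called in any alternative that kept 2 libraries per group. Calls over all genes there were 1 with a pseudocount of 0.1, 7 with only the 2 groups compared, and 0 to 31 with 1 library left out (31 without Model replicate 2).

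In Model vs. Control, Ifitm1 was at 5.21 with a pseudocount of 0.1 and 5.05 with voom. Ifitm2 was at -0.17 with quantile normalization, 0.030 with fragment totals and 0.033 with voom. Ifitm3 was at 2.38, 2.74 and 2.75 under the same settings. Calls over all genes were 260 without a filter, 797 with 2 groups, 2734 with voom, and 692 (without Model replicate 1) to 2077 with 1 library left out. Of the antiviral list, 12 were called without a filter, where 30192 genes were tested.

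In MUS vs. Control, Ifitm1 was at 4.92 with a pseudocount of 0.1, 2.99 with quantile normalization, 3.0 with fragment totals and 4.77 with voom. Ifitm2 was at -1.21, -1.14 and -1.16 and Ifitm3 at 1.36, 1.61 and 1.62 with quantile normalization, fragment totals and voom. Calls over all genes were 456 without a filter, 3144 with voom, and 184 (without MUS replicate 1) to 2398 with 1 library left out. Antiviral genes called were 16 without a filter and 10 (without MUS replicate 1) to 39 with 1 library left out. Where a group has 1 library left, it is assumed to vary like the others. The cause of these shifts was not tested. Median centring and the gene-length correction, chosen after seeing the data, moved no member by more than the replicate SD. Depth limits Ifitm1 in Control, with 5 to 7 fragments, and Ifitm6, with 23 to 66.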
